A study of Mus musculus with 8 samples.

Results

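The 10 genes described here code for surface proteins by which mesenchymal and adipose progenitors are commonly recognised or isolated: Pdgfra, Pdgfrb, Cd34, Ly6a (Sca-1), Thy1 (CD90), Cd24a, Nt5e (CD73), Pdpn, Cd9 and Cd81. They were taken by symbol from the deposited table of read counts, which lists 17967 symbols. All 10 were listed there, and all 10 passed the filter on low counts that left 13694 genes for testing. Their transcripts were measured by bulk RNA sequencing of adipose-derived stem cells, which are fibroblast-like and can form adipocytes. White fat of male C57BL/6J wild type mice fed chow was digested with collagenase, red blood cells were lysed, and the stem cells were isolated by flow cytometry; the age of the mice is not stated. There were 2 libraries for each of 3 depots: the subcutaneous inguinal depot (SWAT), the epididymal depot (EWAT) and the perirenal depot (NWAT). Mesenteric fat is not analysed here. The antigens of the sorting gate are not named in the sources used, so any of the 10 genes may have been used to choose the cells.

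The genes fall into 4 kinds of surface protein. Pdgfra and Pdgfrb are receptor tyrosine kinases for platelet-derived growth factors, dimeric ligands that drive proliferation and migration of mesenchymal cells, and Pdgfra marks adipose progenitors in mice. Cd34 and Pdpn are heavily glycosylated transmembrane proteins, a sialomucin and a mucin-type glycoprotein. Ly6a, Thy1, Cd24a and Nt5e are held in the outer leaflet of the membrane by a glycosylphosphatidylinositol (GPI) anchor, and Nt5e is also an enzyme that makes adenosine from extracellular AMP. Cd9 and Cd81 are tetraspanins, which organise other membrane proteins into microdomains and are abundant on extracellular vesicles.

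Each library held 20026414 to 20638728 estimated read counts. The correlation of log2 CPM between the 2 libraries of a depot, over genes, was 0.991 in SWAT, 0.988 in EWAT and 0.99 in NWAT. Whether the 2 libraries of a depot are from different mice is not stated, and the p-values therefore measure only the spread between libraries, which may be technical. Defining fibroblast genes (Col1a1, Col1a2, Col3a1, Dcn, Lum, Dpt, Pi16 and Gsn) summed to 171294–175135 CPM in SWAT, 74879–78476 CPM in EWAT and 72757–77130 CPM in NWAT. The genes did not all share that order. In SWAT over EWAT 5 of the 8 were higher and 1, Dcn, was lower (log2 fold change -0.85, adjusted p = 0.000266 by edgeR). In SWAT over NWAT 5 were higher and 1, Pi16, was lower (-0.80, adjusted p = 0.00173). Adipocyte genes summed to at most 8.4 CPM in any library, and the pan-leukocyte gene Ptprc reached at most 0.854 CPM. The pan-endothelial genes Pecam1 and Cdh5 reached at most 8.63 and 6.8 CPM. Other genes of these cell types were higher. Tek, another endothelial gene, had 177.8 to 354.81 CPM, and the macrophage genes Cd68 and Lyz2 reached 14.7 and 8.97 CPM. One NWAT library, replicate 2, had 230.72 CPM of red blood cell and platelet genes, against 15.5 CPM in the other NWAT library. In bulk RNA, fewer cells that express a gene and less RNA of that gene per cell cannot be told apart.

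Scaled to transcript length and library size (FPKM, the deposited unit for comparing genes), the 10 markers covered a wide range. Ly6a was the highest by its median over the 6 libraries, at 783 FPKM, and ranked between 34 and 84 among the 17967 symbols. Cd34 followed with a median of 551 FPKM and a rank between 59 and 110. Cd81 (229 FPKM), Pdgfra (175 FPKM), Thy1 (165 FPKM) and Pdpn (118 FPKM) formed a middle range, and Pdgfrb (65.8 FPKM) and Cd9 (61.2 FPKM) stood below them. The 2 lowest were Nt5e, with a median of 7.7 FPKM and a range of 3.95 to 27.1 FPKM, and Cd24a, with a median of 1.93 FPKM and a range of 1.37 to 8.09 FPKM. The library ranges of Ly6a and Cd34 overlapped, as did those of Cd81, Pdgfra and Thy1, of Thy1 and Pdpn, and of Pdgfrb and Cd9. Those of Pdpn and Pdgfrb and of Nt5e and Cd24a also overlapped. Ranges over all 6 libraries were apart at the steps from Cd34 to Cd81 and from Cd9 to Nt5e. Compared within a library, Ly6a was above Cd34 and Nt5e above Cd24a in all 6.

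**Figure D1:**
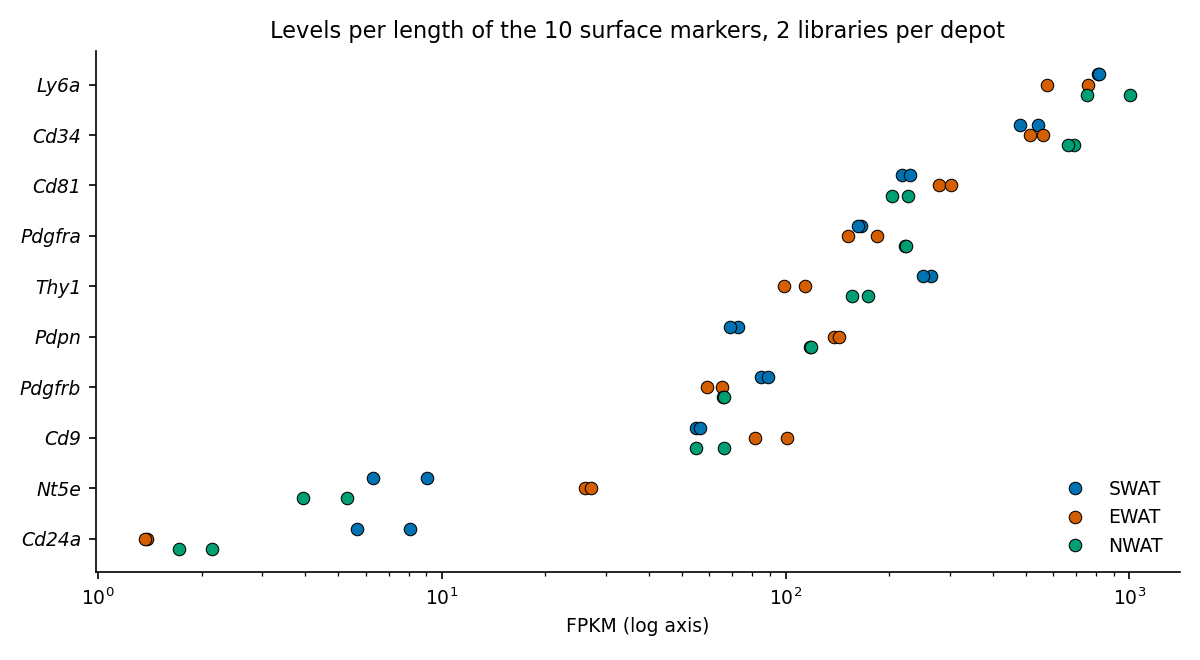
Length-scaled level of each marker (FPKM, log axis) in the 6 libraries, with points coloured by depot and markers ordered by their median. Ly6a and Cd34 lie at the top, with medians of 783 and 551 FPKM, and Nt5e and Cd24a lie apart at the bottom, with medians of 7.7 and 1.93 FPKM.

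Across depots the markers did not move as a block. In a joint edgeR quasi-likelihood test among the 3 depots, 9 of the 10 passed an adjusted p of 0.05, all but Cd34 (adjusted p = 0.0611), against 41.7% of all genes tested. SWAT differed from EWAT in 7 of 10 markers, against 36.7% of all genes. Of these, 4 were higher in SWAT (Pdgfrb, Ly6a, Thy1 and Cd24a), against 18.0% of all genes, and 3 were lower (Nt5e, Pdpn and Cd9), against 18.7%. SWAT differed from NWAT in 5 of 10, against 18.9% of all genes: 4 were higher in SWAT (Pdgfrb, Thy1, Cd24a and Nt5e), against 9.07%, and Pdpn was lower, against 9.83%. EWAT differed from NWAT in 6 of 10, against 27.3% of all genes: 3 were higher in EWAT (Nt5e, Cd9 and Cd81), against 13.3%, and 3 were lower (Pdgfra, Cd34 and Thy1), against 14.0%. Of these 6 calls, those of Pdgfra, Cd34 and Cd81 were lost without NWAT replicate 1 and also without NWAT replicate 2. That of Cd9 was lost without NWAT replicate 1. The 3 pairs share libraries, so they are not independent of each other. The shares over all genes were not matched for expression level, and most of the 10 markers had high FPKM, as given above. The markers were also chosen with earlier results of these data known.

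Thy1 and Nt5e were the 2 markers that differed in all 3 pairs, as did 5.41% of all genes. The SWAT over NWAT call of Nt5e held in 12 of 16 alternatives. The median size of the log2 fold change over the 10 markers, sign ignored, was 0.61 for SWAT over EWAT, 0.40 for SWAT over NWAT and 0.45 for EWAT over NWAT, beside 0.32, 0.22 and 0.27 over all genes tested. The signed medians were 0.18, 0.16 and -0.25, beside -0.01, -0.02 and 0.01 over all genes. The libraries of SWAT and EWAT did not overlap for any of the 10 markers, nor did those of EWAT and NWAT, while those of SWAT and NWAT did not overlap for 8 of 10. Non-overlap was common in these data, at 70.0%, 65.5% and 63.1% of all genes in those 3 pairs with 2 libraries a depot.

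**Figure D2:**
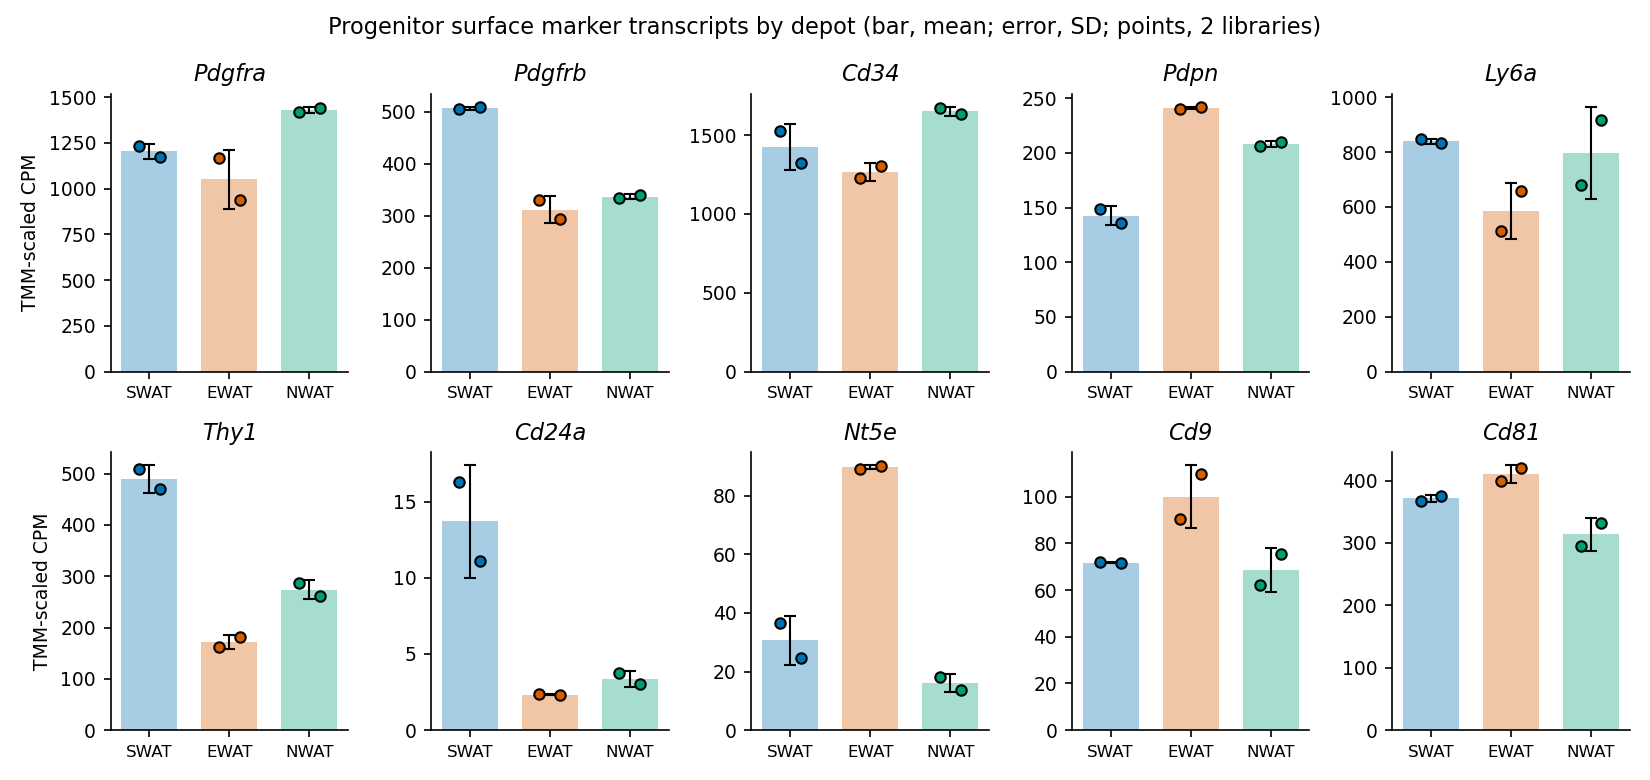
TMM-scaled CPM of each marker in the 2 libraries of each depot (points) with the depot mean (bar) and SD (error bar), depots in the order SWAT, EWAT, NWAT, and a separate vertical axis per gene. Thy1 and Cd24a stand highest in SWAT (means of 489.67 and 13.7 CPM) and Nt5e and Pdpn in EWAT (means of 89.7 and 241.24 CPM), while Cd34 stays within 1227 to 1672 CPM in all libraries.

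The 2 PDGF receptors followed different depot orders. Pdgfrb, the receptor that also marks pericytes and other mural cells, had 504.16 and 508.46 CPM in SWAT, 329.95 and 293.27 CPM in EWAT, and 333.29 and 339.99 CPM in NWAT. SWAT was thus high, and the other depots lay together. The log2 fold change was 0.70 ± 0.11 (SE) for SWAT over EWAT (adjusted p = 0.000511) and 0.59 ± 0.11 for SWAT over NWAT (adjusted p = 0.00295), and both calls held under every alternative run. EWAT over NWAT gave -0.11 ± 0.11 (adjusted p = 0.492). Of 9 mural cell genes listed, 8 were tested, and they did not share this order. Their sum was 56.0–77.2 CPM in SWAT, 151–158 CPM in EWAT and 40.4–45.5 CPM in NWAT, with 3 higher and 5 lower in SWAT than in EWAT and Higd1b at 0 in SWAT. Notch3, a mural receptor gene, had 34.7 and 50.2 CPM in SWAT, 14.4 CPM at most in EWAT and 16.1 CPM at most in NWAT. Des, a muscle intermediate filament gene, made up most of the sum in EWAT at 90.9 and 95.8 CPM. Their part in the Pdgfrb result was not tested.

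Pdgfra, at chr5:75151322-75198206 (+) in GRCm38.p6, had 1233.2 and 1174.18 CPM in SWAT, 1164.83 and 935.62 CPM in EWAT, and 1420.1 and 1442.88 CPM in NWAT. NWAT was the highest and its libraries were close, whereas the 2 EWAT libraries differed 1.24-fold. EWAT over NWAT gave a log2 fold change of -0.45 ± 0.13 (adjusted p = 0.0249). That call was lost without EWAT replicate 2 (-0.30, adjusted p = 0.144), without NWAT replicate 1 (-0.46, adjusted p = 0.101) or without NWAT replicate 2 (-0.43, adjusted p = 0.109). The call was also lost with limma on FPKM without a filter (-0.41, adjusted p = 0.0638). SWAT over NWAT (-0.25 ± 0.13, adjusted p = 0.216) and SWAT over EWAT (0.20 ± 0.13, adjusted p = 0.26) did not pass. With library totals SWAT over NWAT passed at -0.44 (adjusted p = 0.0206) and SWAT over EWAT turned to -0.04, and without EWAT replicate 1 SWAT over EWAT passed at 0.36 (adjusted p = 0.0439). Within each library the FPKM ratio of Pdgfra to Pdgfrb, which does not depend on library scaling, was 1.96 and 1.83 in SWAT, 2.84 and 2.58 in EWAT, and 3.39 and 3.39 in NWAT. The 3 depots did not overlap in this ratio, with SWAT lowest and NWAT highest.

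Of 16 genes for PDGF ligands and receptor signalling, 7, 4 and 7 were called in the 3 pairs, beside 36.7%, 18.9% and 27.3% of all genes. In SWAT over EWAT 7 were higher and none lower (median log2 fold change 0.35, beside -0.01 over all genes tested). In SWAT over NWAT, 3 were higher and 1 was lower (median 0.13, beside -0.02), and in EWAT over NWAT none was higher and 7 were lower (median -0.20, beside 0.01). The 3 higher in SWAT than in NWAT became 1 without SWAT replicate 1, NWAT replicate 1 or NWAT replicate 2, and 0 without SWAT replicate 2. Of the zero counts, DESeq2 gave the same, and at an unadjusted p under 0.05 edgeR gave 2 lower in SWAT than in EWAT and 0 higher in EWAT than in NWAT. The 7 lower in EWAT than in NWAT became 3 without EWAT replicate 2 or without NWAT replicate 1. With library totals in place of TMM scaling, 6 were higher and 3 lower in SWAT than in EWAT. Pdgfc, a PDGFRA ligand gene, averaged 23.4 ± 0.493 CPM in SWAT, 9.2 ± 0.202 CPM in EWAT and 17.1 ± 2.42 CPM in NWAT (SD, n = 2 each). Its log2 fold change was 1.35 ± 0.13 for SWAT over EWAT (adjusted p = 1.07e-05), 0.45 ± 0.13 for SWAT over NWAT (adjusted p = 0.0269) and -0.90 ± 0.13 for EWAT over NWAT (adjusted p = 0.000404). The second of these was lost with DESeq2 (0.46, adjusted p = 0.0852), with library totals in edgeR (0.26, adjusted p = 0.156) and on every FPKM scale. It was also lost without NWAT replicate 2 or either SWAT library. Lrp1, an endocytic receptor that binds PDGFRB, averaged 5572 ± 54.7 CPM in SWAT, 2781 ± 413.66 CPM in EWAT and 3873 ± 266.96 CPM in NWAT. It was higher in SWAT than in EWAT (1.00 ± 0.14, adjusted p = 0.000159), and of its other calls, SWAT over NWAT (0.52) was lost without any 1 of those 4 libraries and EWAT over NWAT (-0.48) without EWAT replicate 2 or NWAT replicate 1. The SWAT over NWAT call was also lost with library totals (0.33, adjusted p = 0.0756) and on every FPKM scale. EWAT over NWAT was also lost with limma on FPKM without a filter (-0.44, adjusted p = 0.0653). The ligand genes Pdgfa and Pdgfb, named here after their values were seen, had at most 2.29 CPM in any library and passed in no pair.

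Cd34 was among the steadiest of the markers. It had 1526.57 and 1321.74 CPM in SWAT, 1226.9 and 1307.43 CPM in EWAT, and 1671.8 and 1631.73 CPM in NWAT. NWAT was highest in both libraries, and the highest and lowest depot means differed 1.3-fold. EWAT over NWAT passed at -0.38 ± 0.12 (adjusted p = 0.0363), but not without EWAT replicate 1 (adjusted p = 0.087), EWAT replicate 2 (adjusted p = 0.053), NWAT replicate 1 (adjusted p = 0.163) or NWAT replicate 2 (adjusted p = 0.117). SWAT over EWAT (0.17 ± 0.12, adjusted p = 0.302) and SWAT over NWAT (-0.21 ± 0.12, adjusted p = 0.261) did not pass. With library totals as the scale, SWAT over NWAT was -0.41 (adjusted p = 0.0241), and SWAT over EWAT turned to -0.07. The EWAT over NWAT call was lost with that scale (-0.34, adjusted p = 0.0519 by edgeR) and on every FPKM scale. Cd34 also marks vascular endothelium. The 10 endothelial genes summed to 255–294 CPM in SWAT, 209–241 CPM in EWAT and 354–372 CPM in NWAT, of which Tek alone made up 177.8 to 354.81 CPM. In EWAT over NWAT, 2 of the 10 were higher and 1, Tek, was lower, and their part in the Cd34 result was not tested.

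Pdpn had another depot order, with EWAT highest. It codes for podoplanin, a ligand of the platelet receptor CLEC-2 and a marker of lymphatic endothelium and fibroblasts, and lies at chr4:143267409-143299564 (-). It had 148.55 and 136.28 CPM in SWAT, 240.56 and 241.91 CPM in EWAT, and 206.51 and 209.86 CPM in NWAT. SWAT was the low depot, at -0.76 ± 0.10 against EWAT (adjusted p = 0.000161) and -0.55 ± 0.10 against NWAT (adjusted p = 0.00292). The first call held under every alternative run, and the second was lost without SWAT replicate 2 (-0.48, adjusted p = 0.0547). EWAT over NWAT was 0.21 ± 0.10 (adjusted p = 0.145). Podoplanin is also made by mesothelial cells, which line visceral fat. The 9 mesothelial genes summed to 3.62–4.48 CPM in SWAT, 160–170 CPM in EWAT and 119–147 CPM in NWAT. In SWAT over EWAT 5 of the 7 tested were lower and 1, the keratin gene Krt19, was higher (2.14, adjusted p = 9.41e-05). Nearly all of that sum was Wt1, a transcription factor gene also used by visceral fat progenitors, with 0 counts in both SWAT libraries; Upk1b was also at 0 there, and mesothelin (Msln) reached at most 1.3 CPM. The 6 lymphatic endothelial genes summed to 3.32–4.0 CPM in SWAT, 3.55–7.1 CPM in EWAT and 5.39–5.53 CPM in NWAT. The part of these cells in the Pdpn result was not tested.

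Of 12 sialomucins and partners of podoplanin or CD24, 10 were tested. The calls in the 3 pairs were 2, 2 and 2, beside 36.7%, 18.9% and 27.3% of all genes. These were not the same genes in each pair, and only Ezr passed in all 3. In every pair 1 was higher and 1 lower (medians 0.09, 0.13 and 0.02, beside -0.01, -0.02 and 0.01 over all genes). These counts changed when single libraries were left out. They are net counts, so a count that stayed the same may rest on another gene. With library totals, 1 was higher and 3 lower in SWAT than in EWAT, and 0 were higher and 4 lower in SWAT than in NWAT. Ezr codes for ezrin, which links podoplanin to the actin cortex, and was the member with the most change. It averaged 5.49 ± 0.227 CPM in SWAT, 35.8 ± 0.609 CPM in EWAT and 23.6 ± 0.265 CPM in NWAT (SD, n = 2 each). The log2 fold changes were -2.70 ± 0.12 for SWAT over EWAT (adjusted p = 1.6e-08), -2.10 ± 0.12 for SWAT over NWAT (adjusted p = 4.97e-07) and 0.60 ± 0.10 for EWAT over NWAT (adjusted p = 0.00116), and none was lost under any alternative. Its SWAT level was thus low, as for Pdpn. The sialomucin gene Cd164 was higher in SWAT than in EWAT (0.53 ± 0.11, adjusted p = 0.00261), and its call against NWAT (0.35 ± 0.11, adjusted p = 0.0436) was lost without any 1 of the 4 libraries compared. The call against NWAT was also lost with library totals (0.15, adjusted p = 0.274) and on every FPKM scale. Muc1 averaged 2.45 CPM in SWAT, 2.38 CPM in EWAT and 4.19 CPM in NWAT. Its EWAT over NWAT call (-0.81 ± 0.26, adjusted p = 0.0377) was lost in 9 alternatives, DESeq2 among them (adjusted p = 0.129).

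The promoters of the 3 markers that were lower in SWAT than in EWAT, Nt5e, Pdpn and Cd9, are shown because these genes shared that direction. Of the 10 markers, 6 matched an entry in the RefSeq promoter table for GRCm38.p6, which holds 250 bases before to 50 after each annotated start. Each is written 5′ to 3′ on the gene's strand, with matches to the GC box (GGGCGG on either strand) in capitals. They lie at chr9:88327359-88327658 (+) for Nt5e, chr4:143299515-143299814 (-) for Pdpn and chr6:125494711-125495010 (-) for Cd9.
Nt5e: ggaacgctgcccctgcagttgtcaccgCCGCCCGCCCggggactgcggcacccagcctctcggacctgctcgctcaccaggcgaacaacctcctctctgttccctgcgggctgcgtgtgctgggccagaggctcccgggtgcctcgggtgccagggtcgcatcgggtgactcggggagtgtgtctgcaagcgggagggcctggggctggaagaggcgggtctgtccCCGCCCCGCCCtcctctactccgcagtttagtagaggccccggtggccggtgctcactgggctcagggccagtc
Pdpn: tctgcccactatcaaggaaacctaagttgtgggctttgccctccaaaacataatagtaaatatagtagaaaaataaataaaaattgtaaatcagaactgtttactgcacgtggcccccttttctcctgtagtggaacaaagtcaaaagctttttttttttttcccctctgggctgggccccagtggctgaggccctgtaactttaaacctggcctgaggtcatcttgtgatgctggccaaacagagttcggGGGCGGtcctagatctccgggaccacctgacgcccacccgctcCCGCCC
Cd9: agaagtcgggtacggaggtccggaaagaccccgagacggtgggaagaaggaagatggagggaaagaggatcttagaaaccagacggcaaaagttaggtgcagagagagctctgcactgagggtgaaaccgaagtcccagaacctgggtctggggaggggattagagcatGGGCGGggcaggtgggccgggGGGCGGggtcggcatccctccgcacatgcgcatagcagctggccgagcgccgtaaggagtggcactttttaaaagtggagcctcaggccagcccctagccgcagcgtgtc
These windows held 4, 2 and 2 GC box matches in that order, and 35.7% of all 32851 promoters in the table held at least 1. Of the other 3 markers in the table, Cd81 had 3 matches, and Pdgfra and Cd34 had 0. The 4 matches of Nt5e form 2 overlapping pairs. None of the 3 windows held TATAAA or CCAAT on either strand, which occur in 13.6% and 37.4% of all promoters. The E-box letters CANNTG occurred 1, 2 and 3 times, against at least 1 match in 72.3% of all promoters, and no match overlapped that of another motif. The GC content was 71.0%, 48.7% and 61.3%. A match to these letters is a description of the window and not evidence of binding.

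Among the GPI-anchored markers, Thy1 gave the clearest separation of the 3 depots. Thy1, at chr9:44043384-44048579 (+), codes for a small immunoglobulin-type glycoprotein of fibroblasts, neurons and mouse T cells. It had 508.65 and 470.69 CPM in SWAT, 161.63 and 181.08 CPM in EWAT, and 286.96 and 261.24 CPM in NWAT. SWAT was highest, NWAT intermediate and EWAT lowest, without overlap. The log2 fold change was 1.51 ± 0.12 for SWAT over EWAT (adjusted p = 1.57e-06), 0.84 ± 0.12 for SWAT over NWAT (adjusted p = 0.000337) and -0.68 ± 0.12 for EWAT over NWAT (adjusted p = 0.00116), and all 3 calls held under every alternative run. T, NK and B cell genes were low throughout. The 9 of 11 that the table lists summed to 3.34–4.11 CPM in SWAT, 2.38–2.8 CPM in EWAT and 2.58–4.12 CPM in NWAT, with Cd3e at most at 0.187 CPM and Cd3g at 0 in SWAT and NWAT. Cd3d had 1.59 and 1.32 CPM in SWAT, 1.07 and 0.359 CPM in EWAT, and 0.62 and 1.46 CPM in NWAT, and passed in no pair. The part of these cells in the Thy1 result was not tested.

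Cd24a had the largest fold differences of the 10 markers in SWAT over EWAT and SWAT over NWAT, at the lowest level of all. It codes for a short, heavily glycosylated protein that marks early adipocyte progenitors in mice, and lies at chr10:43579169-43584265 (+). Its estimated counts were 298 and 211 in SWAT, 51 and 51 in EWAT, and 78 and 62 in NWAT, which correspond to 16.3 and 11.1 CPM in SWAT, 2.38 and 2.29 CPM in EWAT, and 3.72 and 3.01 CPM in NWAT. SWAT stood apart from both other depots, although its own libraries differed 1.47-fold. The log2 fold change was 2.55 ± 0.23 for SWAT over EWAT (adjusted p = 4.75e-06) and 2.03 ± 0.22 for SWAT over NWAT (adjusted p = 4.6e-05), and both calls held under every alternative run. EWAT over NWAT was -0.53 ± 0.25 (adjusted p = 0.137). CD24 is also carried by B cells, red blood cells and neural cells. The 6 Schwann cell genes summed to 21.6–29.9 CPM in SWAT, 9.29–10.7 CPM in EWAT and at most 12.5 CPM in NWAT. Of the 5 tested, 4 were higher in SWAT than in EWAT, and 2 were higher in SWAT than in NWAT. Sox10 was at 0 in NWAT and had only 2 counts in each SWAT library. The 8 red blood cell and platelet genes summed to 22.4–37.7 CPM in SWAT, 14.4–21.5 CPM in EWAT and 15.5–231 CPM in NWAT. The part of Schwann cells, red blood cells and B cells in the Cd24a result was not tested.

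Nt5e, at chr9:88327609-88372089 (+), had its highest level in EWAT, as did Pdpn, Cd9 and Cd81, and the largest fold difference of the 10 markers in EWAT over NWAT. It had 36.5 and 24.7 CPM in SWAT, 89.2 and 90.2 CPM in EWAT, and 18.3 and 13.8 CPM in NWAT. EWAT was highest in both libraries and NWAT lowest, and the highest library exceeded the lowest 6.54-fold. The log2 fold change was -1.55 ± 0.18 for SWAT over EWAT (adjusted p = 0.000118) and 2.48 ± 0.19 for EWAT over NWAT (adjusted p = 1.02e-05), and both calls held under every alternative run. SWAT over NWAT was 0.93 ± 0.19 (adjusted p = 0.00722), but did not pass with limma on FPKM without a filter (0.62, adjusted p = 0.0633). That call was lost without NWAT replicate 2 (0.74, adjusted p = 0.0582), EWAT replicate 1 (0.93, adjusted p = 0.0691) or EWAT replicate 2 (0.94, adjusted p = 0.0756). Macrophage genes were low and also highest in EWAT, with a sum over 12 genes of 14.8–24.6 CPM in SWAT, 35.2–38.3 CPM in EWAT and 18.5–21.2 CPM in NWAT, with 6 of the 11 tested higher in EWAT than in NWAT. Their part in the Nt5e result, and that of the mural cell genes given above, was not tested.

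Ly6a, the classical mouse stem cell antigen, was abundant and showed the least certain depot pattern of the GPI-anchored markers. It had 846.61 and 832.48 CPM in SWAT, 512.83 and 657.4 CPM in EWAT, and 678.89 and 916.13 CPM in NWAT. The SWAT libraries lay within the range of the NWAT libraries, and EWAT was below both. SWAT over EWAT passed at 0.52 ± 0.16 (adjusted p = 0.0265), but not without SWAT replicate 1 (0.51, adjusted p = 0.101), SWAT replicate 2 (0.53, adjusted p = 0.089) or EWAT replicate 1 (0.35, adjusted p = 0.119), nor with library totals as the scale (0.28, adjusted p = 0.18). EWAT over NWAT was -0.45 ± 0.16 (adjusted p = 0.0609), and it passed with DESeq2 (-0.45, adjusted p = 0.0171), without EWAT replicate 2 (-0.64, adjusted p = 0.0211) and without NWAT replicate 1 (-0.65, adjusted p = 0.0283). The SWAT over EWAT call was also lost on every FPKM scale (0.30). SWAT over NWAT was 0.07 ± 0.16 (adjusted p = 0.802). The estimated counts of Ly6a were not whole numbers in any library, so its reads may have been divided among near-identical Ly6 copies, and its level is uncertain. Within each library, the FPKM ratio of Ly6a to Thy1 was 3.06 and 3.26 in SWAT, 5.83 and 6.67 in EWAT, and 4.35 and 6.45 in NWAT, with SWAT lowest.

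Of 16 genes of the Ly6 and uPAR family, to which Ly6a belongs, 9 were tested. The calls in the 3 pairs were 4, 0 and 6, beside 36.7%, 18.9% and 27.3% of all genes, whose medians were -0.01, -0.02 and 0.01. In SWAT over EWAT 3 were higher and 1 lower (median 0.16), in SWAT over NWAT no gene passed with edgeR (median 0.14), and in EWAT over NWAT 2 were higher and 4 lower (median -0.37). DESeq2 also called none in SWAT over NWAT, and at an unadjusted p under 0.05 edgeR gave 2 higher and 1 lower. With library totals edgeR called 2 lower there. The counts that follow, with 1 library left out, are net counts, in which 1 gene may replace another. The 4 lower in EWAT than in NWAT became 0 without NWAT replicate 2, the 2 higher became 1 without any library but EWAT replicate 1, and the 1 lower in SWAT than in EWAT was lost without SWAT replicate 1, SWAT replicate 2 or EWAT replicate 2. Ly6c1, a monocyte and endothelial antigen gene next in kind to Ly6a, averaged 529.82 ± 33.6 CPM in SWAT, 337.13 ± 72.2 CPM in EWAT and 522.07 ± 41.1 CPM in NWAT (SD, n = 2 each). It was higher in SWAT than in EWAT (0.65 ± 0.15, adjusted p = 0.00528) and lower in EWAT than in NWAT (-0.63 ± 0.15, adjusted p = 0.00853), and the call against NWAT was lost without NWAT replicate 2 (-0.55). That call was also lost with limma on FPKM without a filter (-0.60, adjusted p = 0.0638), and the SWAT over EWAT call on every FPKM scale (0.43). Lypd1 averaged 6.24 CPM in SWAT, 1.6 CPM in EWAT and 3.81 CPM in NWAT. It was higher in SWAT than in EWAT (1.96 ± 0.26, adjusted p = 0.000127). Plaur, the urokinase receptor gene, was lower in EWAT than in NWAT (-0.88 ± 0.18, adjusted p = 0.00462), a call lost without NWAT replicate 2 (-0.58, adjusted p = 0.0538). Cd59a, a complement inhibitor gene, was higher in EWAT than in NWAT (1.79 ± 0.29, adjusted p = 0.000915), at no more than 3.75 CPM in any depot mean.

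Of 14 genes around Nt5e in the extracellular adenosine pathway, 11 were tested. The calls in the 3 pairs were 7, 6 and 4, beside 36.7%, 18.9% and 27.3% of all genes, whose medians were -0.01, -0.02 and 0.01. In SWAT over EWAT 2 were higher and 5 lower (median -0.15), in SWAT over NWAT 2 were higher and 4 lower (median -0.27), and in EWAT over NWAT 3 were higher and 1 lower (median 0.08). The 2 higher in SWAT than in EWAT became 1 without SWAT replicate 1 or EWAT replicate 2, and the 1 lower in EWAT than in NWAT became 2 without EWAT replicate 1 or NWAT replicate 1. Enpp1, an enzyme gene whose product releases AMP from extracellular nucleotides, averaged 0.672 ± 0.0195 CPM in SWAT, 11.3 ± 0.148 CPM in EWAT and 1.51 ± 0.152 CPM in NWAT (SD, n = 2 each). Its depots thus had EWAT high, as for Nt5e, with -4.06 ± 0.23 for SWAT over EWAT (adjusted p = 1.24e-07) and 2.90 ± 0.20 for EWAT over NWAT (adjusted p = 1.32e-06). The adenosine receptor gene Adora2b averaged 9.28 ± 2.08 CPM in SWAT, 15.1 ± 2.54 CPM in EWAT and 24.3 ± 0.12 CPM in NWAT. It was lower in SWAT than in NWAT (-1.39 ± 0.16, adjusted p = 0.000116). Entpd1 (CD39), whose product makes the AMP that CD73 uses, was named here after its values were seen. It averaged 7.62 ± 1.01 CPM in SWAT, 58.7 ± 4.84 CPM in EWAT and 71.5 ± 5.99 CPM in NWAT, at -2.95 ± 0.13 for SWAT over EWAT (adjusted p = 2.06e-08) and -3.23 ± 0.13 for SWAT over NWAT (adjusted p = 3.84e-08). NWAT therefore had high Entpd1 with low Nt5e, EWAT had both high, and SWAT had low Entpd1. Entpd2 of the same list, also named after its values were seen, had another order. It averaged 369.93 ± 14.3 CPM in SWAT, 393.89 ± 32.8 CPM in EWAT and 227.77 ± 2.39 CPM in NWAT. NWAT was lowest, at 0.70 ± 0.11 for SWAT over NWAT (adjusted p = 0.000973) and 0.79 ± 0.11 for EWAT over NWAT (adjusted p = 0.000297).

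Of 29 genes for synthesis and remodelling of the GPI anchor itself, 28 were tested, and the calls in the 3 pairs (8, 4 and 8) stood near the shares of all genes given above. In SWAT over EWAT 5 were higher and 3 lower (median -0.02), in SWAT over NWAT 2 were higher and 2 lower (median 0.11), and in EWAT over NWAT 5 were higher and 3 lower (median 0.05). The 5 higher in SWAT than in EWAT became 2 without SWAT replicate 1 and 3 without EWAT replicate 1, and the 3 lower became 1 without SWAT replicate 1, SWAT replicate 2 or EWAT replicate 2. The 2 higher in SWAT than in NWAT became 0 without SWAT replicate 1 or either NWAT library and 1 without SWAT replicate 2, and the 5 higher in EWAT than in NWAT became 1 to 3 without any library but EWAT replicate 1. With library totals 1 was higher and 8 lower in SWAT than in EWAT. Pgap1, which removes an acyl chain from the anchor, averaged 11.2 ± 0.679 CPM in SWAT, 7.56 ± 0.466 CPM in EWAT and 19.9 ± 0.338 CPM in NWAT (SD, n = 2 each), at -0.82 ± 0.12 for SWAT over NWAT (adjusted p = 0.000635) and -1.40 ± 0.13 for EWAT over NWAT (adjusted p = 1.02e-05). Piga, for the first step of synthesis, was lower in SWAT than in NWAT (-0.82 ± 0.15, adjusted p = 0.00229) and in EWAT than in NWAT (-0.91 ± 0.15, adjusted p = 0.00085). Pgap2 was lower in SWAT than in EWAT (-0.76 ± 0.10, adjusted p = 0.000101) and higher in EWAT than in NWAT (0.67 ± 0.10, adjusted p = 0.000375). Pigo was higher in SWAT than in EWAT (0.70 ± 0.12, adjusted p = 0.00105).

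The tetraspanins Cd9 and Cd81 were both highest in EWAT. Cd9, at chr6:125460266-125494760 (-), had 71.8 and 71.6 CPM in SWAT, 90.6 and 109.5 CPM in EWAT, and 62.0 and 75.4 CPM in NWAT. The EWAT libraries lay above all others, and the SWAT libraries lay between those of NWAT. SWAT over EWAT was -0.48 ± 0.12 (adjusted p = 0.0109) and was lost without SWAT replicate 1 (-0.48, adjusted p = 0.0654), SWAT replicate 2 (-0.48, adjusted p = 0.0703) or EWAT replicate 2 (-0.32, adjusted p = 0.0515). EWAT over NWAT was 0.54 ± 0.12 (adjusted p = 0.00753) and was lost without NWAT replicate 1 (0.41, adjusted p = 0.104). SWAT over NWAT was 0.06 ± 0.13 (adjusted p = 0.786). Cd9 is also abundant on platelets and macrophages, whose gene sums are given above, and their part in this result was not tested.

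Cd81 codes for a tetraspanin that marks a beige adipocyte progenitor in mice. It had 367.56 and 374.92 CPM in SWAT, 399.58 and 420.16 CPM in EWAT, and 295.26 and 332.03 CPM in NWAT. EWAT over NWAT was 0.39 ± 0.11 (adjusted p = 0.0242), a call lost without EWAT replicate 2 (0.35, adjusted p = 0.0623), NWAT replicate 1 (0.31, adjusted p = 0.206) or NWAT replicate 2 (0.47, adjusted p = 0.0538). SWAT over EWAT was -0.14 ± 0.11 (adjusted p = 0.341), which passed at -0.38 (adjusted p = 0.0153) with library totals as the scale, and SWAT over NWAT was 0.24 ± 0.11 (adjusted p = 0.162). The FPKM ratio of Cd81 to Cd9 within each library was 3.99 and 4.08 in SWAT, 3.44 and 2.99 in EWAT, and 3.71 and 3.44 in NWAT. SWAT had the highest ratio in both libraries, and EWAT and NWAT met at 3.44. Non-coding genes lie on the opposite strand across parts of Pdgfra, Cd34, Cd9 and Cd81, and since the strand setting of the counting is not given, reads from them cannot be told apart from those of the markers.

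Of 25 other tetraspanins and their partners, 21 were tested. The calls in the 3 pairs were 13, 9 and 11, beside 36.7%, 18.9% and 27.3% of all genes, whose medians were -0.01, -0.02 and 0.01. In SWAT over EWAT 5 were higher and 8 lower (median 0.00), in SWAT over NWAT 7 were higher and 2 lower (median 0.08), and in EWAT over NWAT 8 were higher and 3 lower (median 0.35). The 8 lower in SWAT than in EWAT became 3 without SWAT replicate 1 and 4 without SWAT replicate 2, and the 5 higher became 3 without SWAT replicate 1. The 7 higher in SWAT than in NWAT became 4 without SWAT replicate 1 or NWAT replicate 1, and the 2 lower became 1 without SWAT replicate 1, NWAT replicate 1 or NWAT replicate 2. The 8 higher in EWAT than in NWAT became 5 without EWAT replicate 2 or NWAT replicate 1. With library totals, 3 were higher and 10 lower in SWAT than in EWAT, and 4 were higher and 5 lower in SWAT than in NWAT, which turns the balance of that pair. Cd151, a partner of laminin-binding integrins, averaged 59.5 ± 1.07 CPM in SWAT, 171.23 ± 11.3 CPM in EWAT and 107.72 ± 3.28 CPM in NWAT (SD, n = 2 each). It separated all 3 depots, at -1.53 ± 0.10 for SWAT over EWAT (adjusted p = 4.65e-07), -0.86 ± 0.10 for SWAT over NWAT (adjusted p = 0.000114) and 0.67 ± 0.10 for EWAT over NWAT (adjusted p = 0.000471), with no call lost under any alternative. Cd82 averaged 10.8 ± 1.41 CPM in SWAT, 14.9 ± 0.731 CPM in EWAT and 3.42 ± 0.313 CPM in NWAT. It was higher in EWAT than in NWAT (2.12 ± 0.16, adjusted p = 2.52e-06), as were Cd9 and Cd81. Tspan9 was also higher in EWAT than in NWAT (0.93 ± 0.12, adjusted p = 0.000125). Tspan12, a co-receptor gene of Frizzled 4, was higher in SWAT than in EWAT (1.08 ± 0.15, adjusted p = 0.000197). Tspan11, named here after its values were seen, averaged 15.9 ± 0.283 CPM in SWAT, 2.36 ± 0.0321 CPM in EWAT and 2.84 ± 0.238 CPM in NWAT, at 2.75 ± 0.17 for SWAT over EWAT (adjusted p = 1.95e-07).

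**Figure D3:**
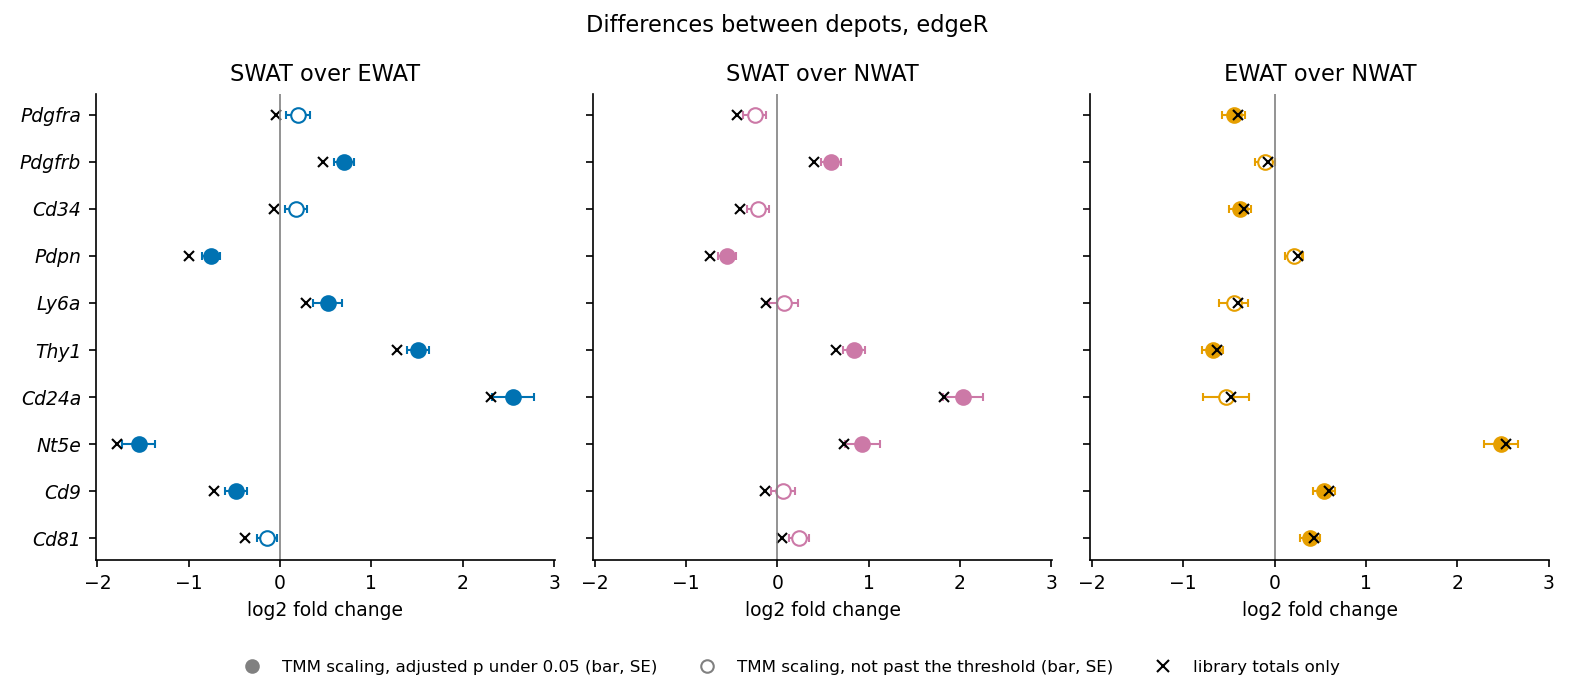
Log2 fold change of each marker in each pair of depots (circles, filled where the adjusted p was under 0.05) with the standard error (bars), on one shared axis, and crosses for the same with library totals as the scale. Cd24a and Thy1 lie right of 0 for SWAT over EWAT (2.55 and 1.51), and Nt5e lies left of 0 there (-1.55) and right of 0 for EWAT over NWAT (2.48).

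The markers could be set against each other without any scaling between libraries. The FPKM ratio of Pdpn to Thy1 was 0.276 and 0.273 in SWAT, 1.4 and 1.26 in EWAT, and 0.679 and 0.757 in NWAT. Thy1 mRNA thus exceeded Pdpn mRNA in SWAT and NWAT, and the order was the other way round in EWAT. The ratio of Nt5e to Thy1 was 0.0344 and 0.0251 in SWAT, 0.265 and 0.239 in EWAT, and 0.0306 and 0.0253 in NWAT. EWAT stood apart in this ratio, and SWAT and NWAT overlapped. The ratio of Ly6a to Cd34, a common pair in progenitor sorts, was 1.5 and 1.7 in SWAT, 1.12 and 1.35 in EWAT, and 1.09 and 1.52 in NWAT. The NWAT range overlapped those of both other depots, and SWAT lay above EWAT. Between-library scaling mattered for small differences: with library totals in place of TMM factors, the median gene shifted by -0.24 in SWAT over EWAT and by -0.19 in SWAT over NWAT (log2), and by 0.05 in EWAT over NWAT. The share of called genes that were higher then moved to 20.9% for SWAT over EWAT, against 49.1% with TMM, to 18.9% for SWAT over NWAT, against 48.0%, and to 55.1% for EWAT over NWAT, against 48.8%. Relative to that shift, the SWAT calls of Thy1, Cd24a, Pdgfrb and Nt5e kept their direction.

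Of 19 other surface genes used for mesenchymal progenitors, 18 were tested, and these too ran in both directions. The calls in the 3 pairs were 12, 6 and 11, beside 36.7%, 18.9% and 27.3% of all genes, whose medians were -0.01, -0.02 and 0.01. In SWAT over EWAT 6 were higher and 6 lower (median 0.26), in SWAT over NWAT 2 were higher and 4 lower (median -0.12), and in EWAT over NWAT 3 were higher and 8 lower (median -0.34). The 6 lower in SWAT than in EWAT became 3 without SWAT replicate 1, and the 4 lower in SWAT than in NWAT became 2 without SWAT replicate 2. With library totals, 2 were higher and 9 lower in SWAT than in NWAT. Mme, which codes for the cell surface peptidase neprilysin (CD10), had the largest differences of this list in SWAT over EWAT and EWAT over NWAT: 186.68 ± 25.0 CPM in SWAT, 5.58 ± 0.832 CPM in EWAT and 69.5 ± 8.68 CPM in NWAT (SD, n = 2 each). The log2 fold change was 5.07 ± 0.16 for SWAT over EWAT (adjusted p = 1.78e-09), 1.43 ± 0.13 for SWAT over NWAT (adjusted p = 1.71e-05) and -3.64 ± 0.16 for EWAT over NWAT (adjusted p = 6.03e-08). Its depot order of SWAT, NWAT and EWAT is that of Thy1. Dpp4, a peptidase gene of early interstitial progenitors in mice, averaged 490.25 ± 37.2 CPM in SWAT, 232.41 ± 8.36 CPM in EWAT and 690.91 ± 52.6 CPM in NWAT. NWAT was its highest depot, as for Pdgfra and Cd34. Dpp4 was higher in SWAT than in EWAT (1.08 ± 0.12, adjusted p = 2.87e-05) and lower in EWAT than in NWAT (-1.57 ± 0.12, adjusted p = 2.52e-06). Cd55, a complement regulator gene, averaged 294.15 ± 40.2 CPM in SWAT, 546.21 ± 26.3 CPM in EWAT and 778.68 ± 23.1 CPM in NWAT. It was lower in SWAT than in NWAT (-1.40 ± 0.13, adjusted p = 1.31e-05). Alcam was lower in EWAT than in NWAT (-2.21 ± 0.23, adjusted p = 3.03e-05), at no more than 8.29 CPM in any depot mean.

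**Figure D4:**
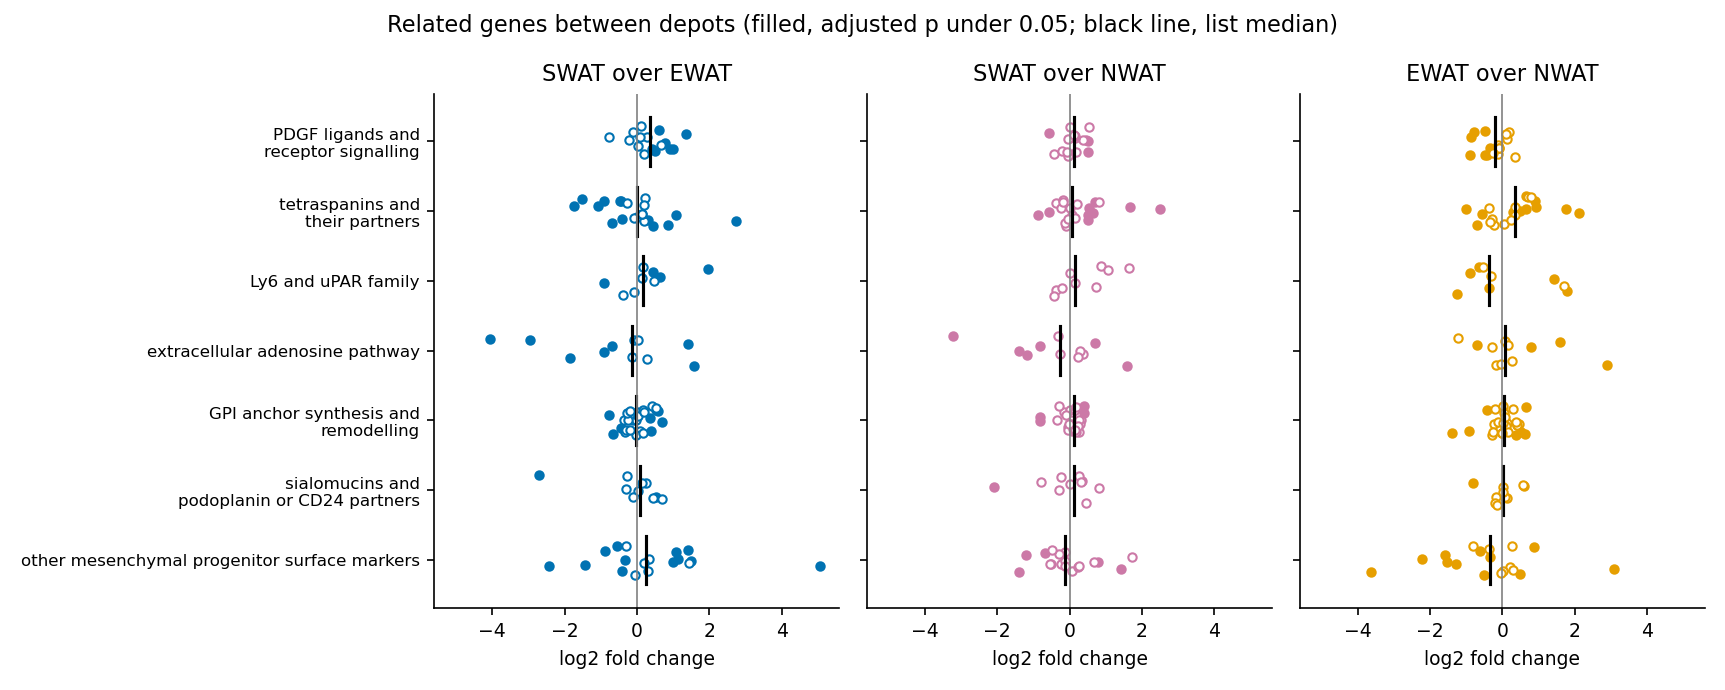
Log2 fold change of each tested gene of the 7 related lists in each pair of depots, filled where the adjusted p was under 0.05, with a black line at the list's median and a grey line at 0. Most lists have filled points on both sides, and the PDGF list has 7 higher and none lower in SWAT over EWAT, and none higher and 7 lower in EWAT over NWAT.

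To show which other genes had a similar profile, the log2 CPM of every gene was centred on its mean over the 6 libraries and compared with each marker over 7245 genes of sufficient level. Likeness is the root mean square difference over the 6 libraries, in log2 units, and is a description only. The nearest genes were Sptan1 (0.021) and Cspp1 (0.0258) for Pdgfra, Cdr2 (0.0334) and Slc8b1 (0.0344) for Pdgfrb, and Poc1b (0.0345) and Aida (0.0359) for Cd34. For Pdpn they were Pea15a (0.0311) and Nsg1 (0.0367), for Cd9 Sdf2 and Bloc1s1 (0.0365 each), and for Cd81 Ssbp2 (0.0278) and Rab5a (0.0281). The nearest genes of the other 4 markers were more distant. Thy1 had Klhl29 (0.0677) and Galm (0.0845), and Cd24a had the collagen gene Col1a1 (0.201) and the homeobox gene Msx1 (0.278). Nt5e had the G protein subunit gene Gnai1 (0.182) and the methyltransferase gene Inmt (0.314), and Ly6a had its family member Ly6e (0.0837) and Jpt2 (0.0984). Col1a1 averaged 28255 CPM in SWAT, 4331 CPM in EWAT and 6321 CPM in NWAT. Gnai1 averaged 24.1 CPM in SWAT, 62.3 CPM in EWAT and 13.2 CPM in NWAT.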

How the data were processed

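Per the file headers, the authors deposited estimated counts and FPKM values per gene symbol. Of the estimated counts, 31.7% to 33.1% were not whole, and all were rounded before testing. The submitters' processing notes name GRCm38.p6, Cell Ranger and Seurat without roles; the sources used here do not state the aligner, counter, kit or strandedness. Columns were matched to depots by their letter, and 2 columns per table whose letter is in no label were not used. Counts were filtered with filterByExpr (count minimum 10, total minimum 15), TMM-scaled (all CPM values) and fitted in edgeR 4.0.16 (R 4.3.3) by quasi-likelihood over 6 libraries, with 3 residual degrees of freedom, a biological coefficient of variation of 0.0979 and Benjamini-Hochberg adjustment over 13694 genes. The fit was tested on simulated data in which few genes changed, evenly in both directions. That test therefore does not bear on the choice of scaling. Standard errors are the absolute log2 fold change over the root of F. Alternatives included DESeq2 1.42.0 and limma 3.58.1 on log2(FPKM + 1). Named list genes were called in every pair or, with fewer than 2 such genes, in the joint test, at most 4 per list. The members and lists were chosen with earlier results of these data known. Gene start and end positions come from the RefSeq annotation of GRCm38.p6, and strands and overlapping genes from GENCODE. The values of 1 cell type marker gene are not reported here.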

Additional observations from a re-analysis of the deposited data

How the results depend on the processing

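Of 630 marker results recomputed under the alternatives, 544 kept their direction and side of the threshold, 48 were no longer past it, 20 came past it and 18 changed sign. All sign changes were in differences that did not pass. SWAT over EWAT became -0.03 for Pdgfra and -0.07 for Cd34 on all FPKM scales, and -0.04 and -0.07 with library totals; SWAT over NWAT became -0.10 for Ly6a and -0.12 for Cd9 on all FPKM scales, -0.12 and -0.13 with library totals, and, leaving out 1 library at a time, ran from -0.12 (without NWAT replicate 1) to 0.31 for Ly6a and from -0.07 (without NWAT replicate 1) to 0.21 for Cd9. Library totals, chosen after seeing the data, moved the genes called in SWAT over NWAT to 3946, against 2588. Leaving out 1 library at a time gave 6 to 8 markers called in the joint test, 5 to 7 in SWAT over EWAT, 4 to 5 in SWAT over NWAT and 3 to 6 in EWAT over NWAT, and 4084 to 6882, 3085 to 5672, 1467 to 3323 and 2129 to 4884 of all genes. DESeq2 called 3969, 2054 and 3004 genes in the 3 pairs. Same-numbered libraries did not deviate together (r over genes of 0.001, 0.038 and 0.11), so the numbers were not taken to pair the samples; the replicate block called 5043, 2595 and 3793 genes and added the joint call of Cd34 (adjusted p = 0.0439) and EWAT over NWAT for Ly6a (-0.44, adjusted p = 0.0223). Of 120 depot means recomputed, 103 moved by less than 1 SD and 17 by 1 SD or more. Leaving out 1 of 2 libraries cannot move a mean by 1 SD, so that part was fixed in advance. The 17 all came from a change of scaling. The cause of these changes was not tested. With 2 libraries a depot, small differences may go undetected, above all for Cd24a, the marker with the fewest counts.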
